A study of Homo sapiens with 10 samples.

Results

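Interferon response genes were followed across 5 lines of MDA-MB-231, a widely used human cell line derived from triple-negative breast cancer. A list of 46 genes that interferons induce or that carry the response defined the set. A gene was taken where a probe set was annotated to it alone, and where several were, the one with the highest mean on the 10 arrays was used. This gave 45 genes of the 19775 on the array; 1 of the 46 listed genes had no probe set annotated to it alone and was not analysed here. Of the 45 genes, 42 reached log2 5 on at least 2 arrays and were tested, among 14929 genes tested in all. CMPK2 (log2 3.54 to 4.68), IFI44L (4.21 to 4.78) and CXCL10 (4.61 to 5.09) stayed below that filter.

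Tumours T2, T3, T6 and T8 were grown from these cells in SCID mice, which lack T and B lymphocytes but keep other host cells. The mice received SM-164, a Smac mimetic that antagonises the IAP proteins restraining caspases and TNF receptor death signalling, at 5 mg/kg by vein on 5 days a week for 2 weeks. The tumours shrank and grew back, and the regrown cells were isolated; per the labels, the resistant tumours were T2 and T3 and the sensitive ones T6 and T8. The reference was the cultured parental line, labelled sensitive. Each line had 2 arrays, and 5 ug of total RNA went into labelling. Whether both arrays of a line stem from separate cultures is not stated in the labels, and p-values therefore measure array spread only, which may be technical. No xenograft without SM-164 was measured, and growth in a mouse, the drug and the isolation of cells cannot be told apart. Values are log2 expression made by the authors, on which a difference of 1 is a doubling of signal. In such bulk RNA, fewer cells of a type and less RNA per cell cannot be told apart.

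Interferons are secreted proteins that bind receptors on the cell surface and, through Janus kinases, activate transcription factors that enter the nucleus. Complexes containing IRF9 bind the interferon-stimulated response element (ISRE) in promoters, and further factors such as IRF1 and IRF7 bind related sequences. The induced proteins block viral RNA, translation and assembly, and some breast cancer lines keep part of the programme active in culture without added interferon.

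The promoters of 36 of the 45 genes were matched in the RefSeq table (GRCh38.p14), as windows of 300 bases that lie mostly before the gene start. The ISRE core was searched as GAAANNGAA or, on the other strand, TTCNNTTTC. It occurred in 24 of the 36 promoters (66.7%), against 8.29% of all 27305 promoters in the table. A gamma-activated site, TTCNNNGAA, occurred in 9 of 36 (25.0%), against 7.88% of all. A form with a single base between the repeats, GAAANGAAA or TTTCNTTTC, was added after the data were seen and occurred in 10 of 36 (27.8%), against 3.22% of all. These spacings can overlap, and 28 of 36 promoters (77.8%) held at least 1 of them, against 11.0% of all. A match describes letters in the window and was not tested as a binding site.

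A few promoters are shown because the results below turn on these genes, with ISRE core or single-base spacing matches in capitals, all on the plus strand of GRCh38.p14. IFIT1 (chr10:89392373-89392672) and IFIT5 (chr10:89414318-89414617) are neighbours that differed between tumours to very different extents, ISG15 (chr1:1013247-1013546) encodes the ubiquitin-like modifier of the response, and OAS1 (chr12:112906712-112907011) was the largest riser.
IFIT1: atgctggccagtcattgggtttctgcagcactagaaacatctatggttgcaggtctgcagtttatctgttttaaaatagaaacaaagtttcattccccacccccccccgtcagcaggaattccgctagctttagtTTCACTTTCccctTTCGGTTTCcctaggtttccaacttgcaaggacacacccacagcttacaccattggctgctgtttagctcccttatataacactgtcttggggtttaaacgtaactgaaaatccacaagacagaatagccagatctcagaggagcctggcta
IFIT5: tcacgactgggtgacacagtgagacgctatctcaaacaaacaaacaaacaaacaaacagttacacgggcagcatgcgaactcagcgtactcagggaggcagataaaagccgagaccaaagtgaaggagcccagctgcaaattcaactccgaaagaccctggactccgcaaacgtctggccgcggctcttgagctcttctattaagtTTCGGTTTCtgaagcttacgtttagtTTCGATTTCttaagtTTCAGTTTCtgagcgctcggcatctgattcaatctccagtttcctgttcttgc
ISG15: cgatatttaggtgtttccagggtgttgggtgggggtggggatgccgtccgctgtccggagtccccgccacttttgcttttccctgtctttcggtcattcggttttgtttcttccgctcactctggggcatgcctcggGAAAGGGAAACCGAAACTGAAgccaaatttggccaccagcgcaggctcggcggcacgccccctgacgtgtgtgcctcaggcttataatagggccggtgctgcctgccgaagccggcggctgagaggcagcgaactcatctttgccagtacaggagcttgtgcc
OAS1: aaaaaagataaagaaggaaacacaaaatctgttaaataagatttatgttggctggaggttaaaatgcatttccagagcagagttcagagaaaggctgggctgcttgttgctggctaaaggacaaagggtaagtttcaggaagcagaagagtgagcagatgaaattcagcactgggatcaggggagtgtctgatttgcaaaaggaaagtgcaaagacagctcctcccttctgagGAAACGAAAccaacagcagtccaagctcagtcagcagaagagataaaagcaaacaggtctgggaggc
The IFIT1 window held 2 ISRE core matches, at 115 and 102 bases before the start. The IFIT5 window held 3, at 44, 18 and 3 bases before the start. The ISG15 window held 3 overlapping matches at 113, 107 and 101 bases before the start. The OAS1 window held no ISRE core match, 1 gamma-activated site and 1 match of the single-base spacing.

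Relative to parental cells, more of the interferon response genes fell than rose over the mean of the regrown tumours. OAS1, IRF7, IRF9, IFITM1 and IFITM2 went the other way. Over the mean of the 4 tumours, 23 of 42 genes were called lower (16.8% of all genes tested) and 5 were called higher (25.5% of all genes), at a limma moderated test with Benjamini-Hochberg adjusted p under 0.05. The median difference was -0.29 over the 42 genes and 0.00 over all genes. T2 alone did not share the balance, with 14 called higher (17.5% of all genes) and 14 lower (15.5%). Every tumour array lay below both parental arrays for 14 of the 42 genes (12.4% of all genes) and above both for 4 (15.7% of all genes). Without less specific probe sets, which can bind related transcripts, 2 of 32 genes were called higher in place of 5.

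**Figure D1:**
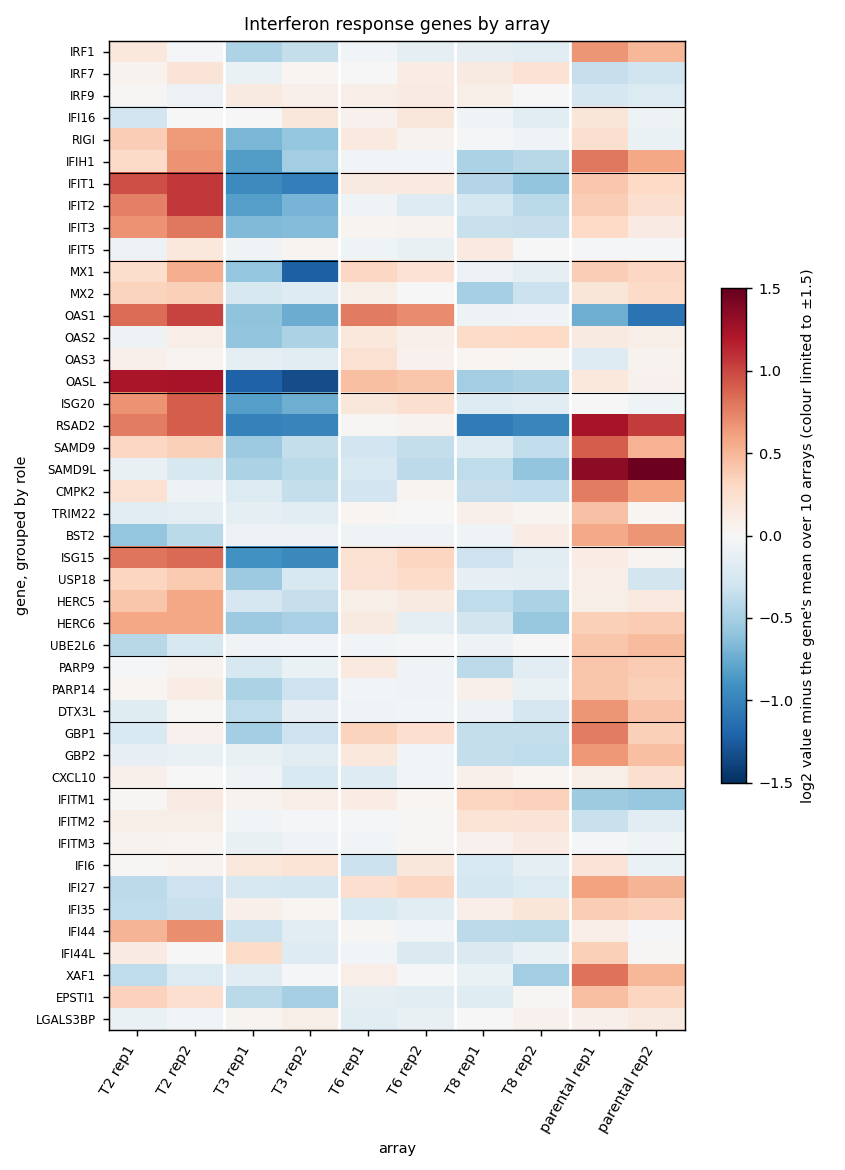
Heat map of the 45 measured interferon response genes (rows, grouped by role) on the 10 arrays (columns, tumours left and parental right). Colour is each gene's log2 value minus its mean over arrays, limited to 1.5 in either direction; T2 columns are high and T3 columns low for most of the IFIT, ISG15 and OAS genes, while SAMD9L and BST2 are high in parental columns.

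Among antiviral effectors, SAMD9L, a restriction factor for poxviruses, showed the largest fall. It read log2 6.51 and 6.39 on the T2 arrays, 6.15 and 6.22 on the T3 arrays, 6.40 and 6.23 on the T6 arrays and 6.24 and 6.03 on the T8 arrays, against 7.96 and 8.09 on the parental arrays. All 8 tumour arrays lay more than 1 log2 below both parental arrays and the tumours differed little among themselves. The difference was -1.75 ± 0.09 (SE), 3.37-fold lower (adjusted p = 1.77e-09), and the F-test among tumours did not call it (adjusted p = 0.144). Its 2 other probe sets gave -1.25 and -1.15.

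SAMD9, the neighbouring gene of the same family, read log2 7.71 and 7.76 on the T2 arrays, 6.85 and 7.04 on the T3 arrays, 7.11 and 7.04 on the T6 arrays and 7.21 and 7.03 on the T8 arrays, against 8.30 and 7.91 on the parental arrays. Every tumour array lay below both parental arrays, with T2 the highest tumour. Its difference was -0.89 ± 0.10 (adjusted p = 5.1e-06). RSAD2, which encodes viperin and makes an antiviral nucleotide, read log2 6.98 and 7.12 on the T2 arrays, 5.20 and 5.23 on the T3 arrays, 6.24 and 6.27 on the T6 arrays and 5.17 and 5.24 on the T8 arrays, against 7.46 and 7.27 on the parental arrays. T3 and T8 were close to the log2 5 floor, T6 lay between, and T2 lay below parental cells by 0.31 without passing the test (adjusted p = 0.0541). The mean over tumours was -1.43 ± 0.09, 2.7-fold lower (adjusted p = 1.39e-08); values near background are compressed, so the T3 and T8 differences may understate the change. CMPK2, its neighbour on the chromosome, stayed below log2 5 on every array, at 3.54 to 4.14 in tumours, against 4.68 and 4.50 in parental cells.

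BST2, the tetherin that holds budding virus at the membrane, read log2 8.94 and 9.12 on the T2 arrays, 9.43 and 9.44 on the T3 arrays, 9.45 and 9.47 on the T6 arrays and 9.46 and 9.63 on the T8 arrays, against 10.09 and 10.18 on the parental arrays. All tumour arrays were below parental and T2 was the lowest tumour. The difference was -0.77 ± 0.07 (adjusted p = 2.65e-07). XAF1, an antagonist of the IAP protein XIAP, read log2 5.59 and 5.76 on the T2 arrays, 5.80 and 5.95 on the T3 arrays, 6.07 and 5.95 on the T6 arrays and 5.88 and 5.45 on the T8 arrays, against 6.79 and 6.46 on the parental arrays. Tumour and parental arrays did not overlap, and the difference was -0.82 ± 0.12 (adjusted p = 8.76e-05). GBP1, an interferon-induced GTPase that acts on intracellular pathogens, read log2 8.85 and 9.14 on the T2 arrays, 8.57 and 8.77 on the T3 arrays, 9.41 and 9.33 on the T6 arrays and 8.72 and 8.72 on the T8 arrays, against 9.85 and 9.44 on the parental arrays. T6 came closest to the parental arrays and lay below both. Its difference was -0.71 ± 0.10 (adjusted p = 3.73e-05), and its neighbour GBP2 gave -0.69 ± 0.08.

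Of the RNA sensors, IFIH1, which encodes MDA5 and detects long double-stranded RNA, read log2 7.01 and 7.40 on the T2 arrays, 5.89 and 6.21 on the T3 arrays, 6.69 and 6.69 on the T6 arrays and 6.25 and 6.31 on the T8 arrays, against 7.52 and 7.31 on the parental arrays. T2 lay nearest parental and 1 T2 array overlapped the parental range; T3 was lowest. The mean fell by 0.86 ± 0.11 (adjusted p = 2.45e-05). RIGI, formerly DDX58, which senses short RNA with a 5′ triphosphate, differed from parental by -0.09 ± 0.08 over the tumour mean and did not pass (adjusted p = 0.423). IFI16, a DNA sensor, gave -0.07 ± 0.08 and did not pass, while its 2 other probe sets gave -0.29 and -0.55.

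The 3 transcription factors measured moved in different directions. IRF1, induced by interferon gamma and a driver of GBP genes, read log2 8.29 and 8.11 on the T2 arrays, 7.67 and 7.78 on the T3 arrays, 8.09 and 7.99 on the T6 arrays and 7.99 and 7.97 on the T8 arrays, against 8.80 and 8.63 on the parental arrays. Every tumour array was below both parental arrays, and the difference was -0.73 ± 0.08 (adjusted p = 2.42e-06). IRF7, the factor that amplifies type I interferon production, read log2 9.27 and 9.41 on the T2 arrays, 9.12 and 9.24 on the T3 arrays, 9.23 and 9.32 on the T6 arrays and 9.36 and 9.43 on the T8 arrays, against 8.87 and 8.91 on the parental arrays. Every tumour array was above both parental arrays, and it rose by 0.41 ± 0.06 (adjusted p = 0.000116), on a probe set of a less specific kind, its only one. IRF9, the DNA-binding subunit of the ISRE complex, read log2 8.66 and 8.56 on the T2 arrays, 8.78 and 8.71 on the T3 arrays, 8.74 and 8.76 on the T6 arrays and 8.73 and 8.65 on the T8 arrays, against 8.38 and 8.43 on the parental arrays. It too lay above parental on every tumour array, by 0.29 ± 0.06 (adjusted p = 0.00187), and neither IRF7 nor IRF9 was called among tumours (F-test adjusted p = 0.164 and 0.41).

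OAS1, the synthetase of 2-5-linked oligoadenylate that activates RNase L, was the largest riser. It read log2 7.30 and 7.47 on the T2 arrays, 5.85 and 5.71 on the T3 arrays, 7.24 and 7.17 on the T6 arrays and 6.38 and 6.40 on the T8 arrays, against 5.72 and 5.35 on the parental arrays. T2 and T6 were highest, T8 intermediate and T3 nearest to parental, where the T3 difference of 0.24 ± 0.13 did not pass (adjusted p = 0.17). The tumour mean was 1.15 ± 0.10, 2.22-fold higher (adjusted p = 5.13e-07), and its other probe set gave 1.15. Its neighbours on the chromosome did not do the same. OAS3 gave 0.09 ± 0.08 and OAS2 -0.14 ± 0.08, and neither passed (adjusted p = 0.399 and 0.181).

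IFITM1, a membrane protein that blocks entry of enveloped viruses, read log2 10.76 and 10.86 on the T2 arrays, 10.79 and 10.84 on the T3 arrays, 10.85 and 10.77 on the T6 arrays and 11.06 and 11.08 on the T8 arrays, against 10.21 and 10.18 on the parental arrays. All tumour arrays lay above both parental arrays, T8 most, and the difference was 0.68 ± 0.05 (adjusted p = 5.55e-08). IFITM2 read log2 12.44 and 12.44 on the T2 arrays, 12.32 and 12.33 on the T3 arrays, 12.33 and 12.37 on the T6 arrays and 12.56 and 12.54 on the T8 arrays, against 12.01 and 12.18 on the parental arrays. Every tumour array again lay above both parental arrays, with a rise of 0.32 ± 0.05 (adjusted p = 7.14e-05). IFITM3 differed by 0.06 ± 0.04 and did not pass. The 3 genes are close paralogs and their probe sets are of the less specific kinds, so which of them carried the change is uncertain.

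Among the other called genes, IFI27, IFI35, UBE2L6 (an enzyme that transfers ISG15), EPSTI1, HERC6, DTX3L, PARP9 and PARP14 fell by 0.44 to 0.70 over the tumour mean. For HERC6, T2 lay above parental by 0.22, which did not pass. DTX3L, a ubiquitin ligase, and PARP14 lay at -0.68 ± 0.09 and -0.48 ± 0.08. PARP9, the partner of DTX3L, gave -0.50 ± 0.09, but its other probe set gave 0.22 and the call was lost when probe sets were averaged. IFIT1, MX1, IFIT2, MX2, IFIT3 and LGALS3BP were called lower by 0.13 to 0.44, with tumours on both sides of parental for the IFIT genes. For MX1 and MX2, T2 also lay above parental, by 0.06 and 0.11, and neither passed. The calls of LGALS3BP, MX1, MX2 and IFIT3 were lost without 1 of the parental arrays or in other settings. IFI6 and TRIM22, neither of which passed, gave -0.05 and -0.29.

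**Figure D2:**
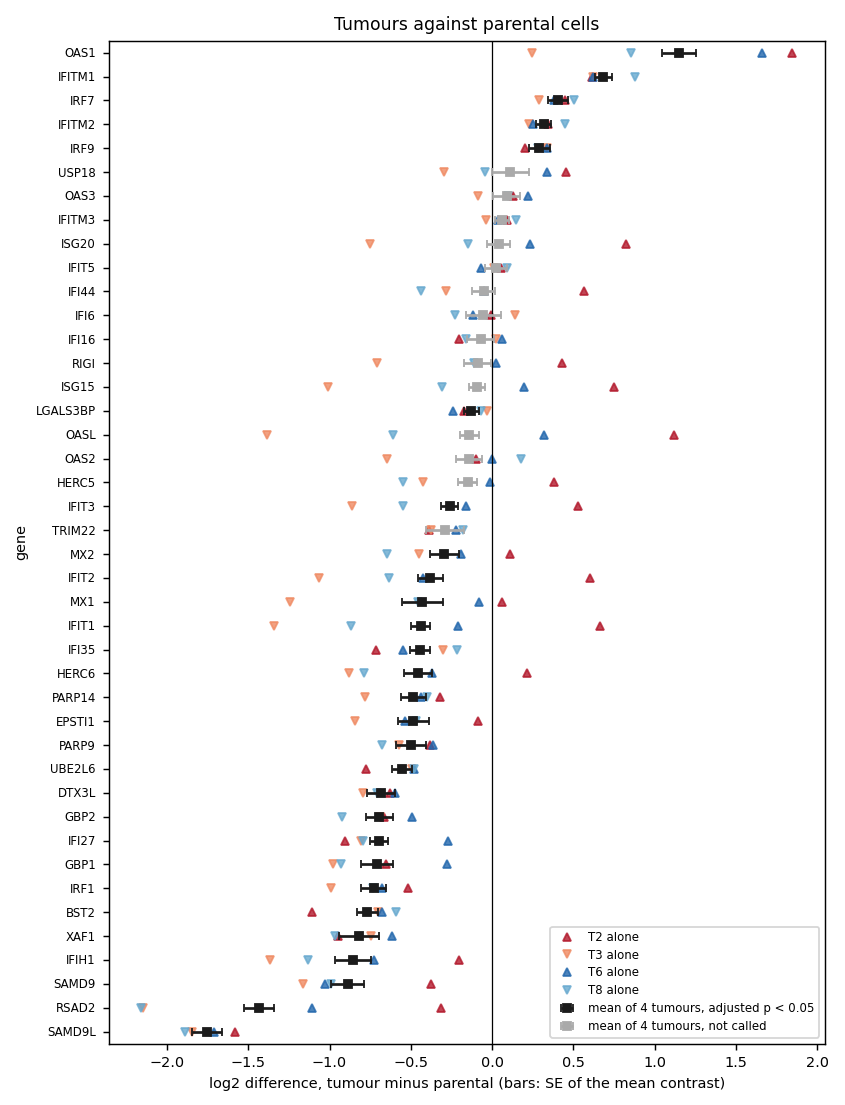
Each tumour minus parental (log2 difference, horizontal) for the tested interferon response genes (rows), 1 triangle per tumour; squares are the mean of the 4 tumours with its SE, black where called at an adjusted p under 0.05 and grey where not. Triangles of the 4 tumours sit close together for SAMD9L and IFITM1, and spread over 2 log2 or more for OASL and IFIT1; the tumours share the parental arrays.

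Set against parental cells 1 tumour at a time, the 4 tumours differed in their balance; these comparisons share the parental arrays. T2 had 14 genes called higher (17.5% of all genes) and 14 lower (15.5%), with a median of 0.02. T3 had 4 higher (22.1%) and 29 lower (15.8%), with a median of -0.70. T6 had 7 higher (20.7%) and 19 lower (13.7%), with a median of -0.20. T8 had 6 higher (28.7%) and 26 lower (15.1%), with a median of -0.46.

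Among the tumours themselves, in contrasts that leave out the parental line, 30 of 42 genes differed by the F-test (41.7% of all genes). The array spread in that test was estimated from all lines, the parental one included. Among the genes tested, T2 and T3, both labelled resistant, stood at opposite ends. T2 was the highest tumour for 21 of 42 genes (29.3% of all genes), T3 the lowest for 23 (29.0% of all), and both held for 16 (11.2% of all). The order T2, T6, T8, T3, high to low, held for 13 of 42 genes (31.0%), against 7.85% of all genes. Directly compared, T2 was called above T3 in 21 of 42 genes (13.9% of all genes) and below it in 3 (16.9%). The median T2 minus T3 was 0.40 over the genes and 0.01 over all genes. T2 was at least 1 log2 above T3 for 12 genes (1.41% of all) and T3 above T2 by that much for 0 (1.46% of all).

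OASL, a relative of the OAS enzymes that enhances RIG-I signalling, had the widest range. It read log2 10.66 and 10.67 on the T2 arrays, 8.22 and 8.10 on the T3 arrays, 9.89 and 9.85 on the T6 arrays and 8.91 and 8.96 on the T8 arrays, against 9.60 and 9.50 on the parental arrays. T2 and T6 lay above parental, and T8 and T3 below, with no overlap between any 2 lines. T2 minus T3 was 2.51 ± 0.07, 5.68-fold (adjusted p = 8.21e-12), and the second probe set gave 2.05. IFIT1, which binds viral RNA lacking the host cap methylation, read log2 11.15 and 11.25 on the T2 arrays, 9.24 and 9.15 on the T3 arrays, 10.32 and 10.33 on the T6 arrays and 9.75 and 9.59 on the T8 arrays, against 10.59 and 10.48 on the parental arrays. T2 was highest and T3 lowest, with parental between T2 and T6, and T2 minus T3 was 2.00 ± 0.07, 4.01-fold (adjusted p = 6.57e-11).

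ISG15, the ubiquitin-like modifier whose promoter is shown above, read log2 13.14 and 13.19 on the T2 arrays, 11.44 and 11.38 on the T3 arrays, 12.56 and 12.66 on the T6 arrays and 12.03 and 12.18 on the T8 arrays, against 12.45 and 12.38 on the parental arrays. T2 and T6 exceeded parental, T8 and T3 lay below it, and the T2 minus T3 difference was 1.76 ± 0.06, 3.38-fold (adjusted p = 5.18e-11). IFIT2, an RNA-binding protein whose gene lies in a cluster with IFIT1, read log2 10.66 and 10.97 on the T2 arrays, 9.09 and 9.21 on the T3 arrays, 9.86 and 9.72 on the T6 arrays and 9.65 and 9.51 on the T8 arrays, against 10.27 and 10.16 on the parental arrays. Only T2 lay above parental, and T2 minus T3 was 1.67 ± 0.10 (adjusted p = 1.1e-08), with 1.61 from its other probe set. RSAD2 and OAS1, given above, differed by 1.83 ± 0.12 and 1.60 ± 0.13 between T2 and T3 (adjusted p = 2.35e-08 and 3.04e-07).

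**Figure D3:**
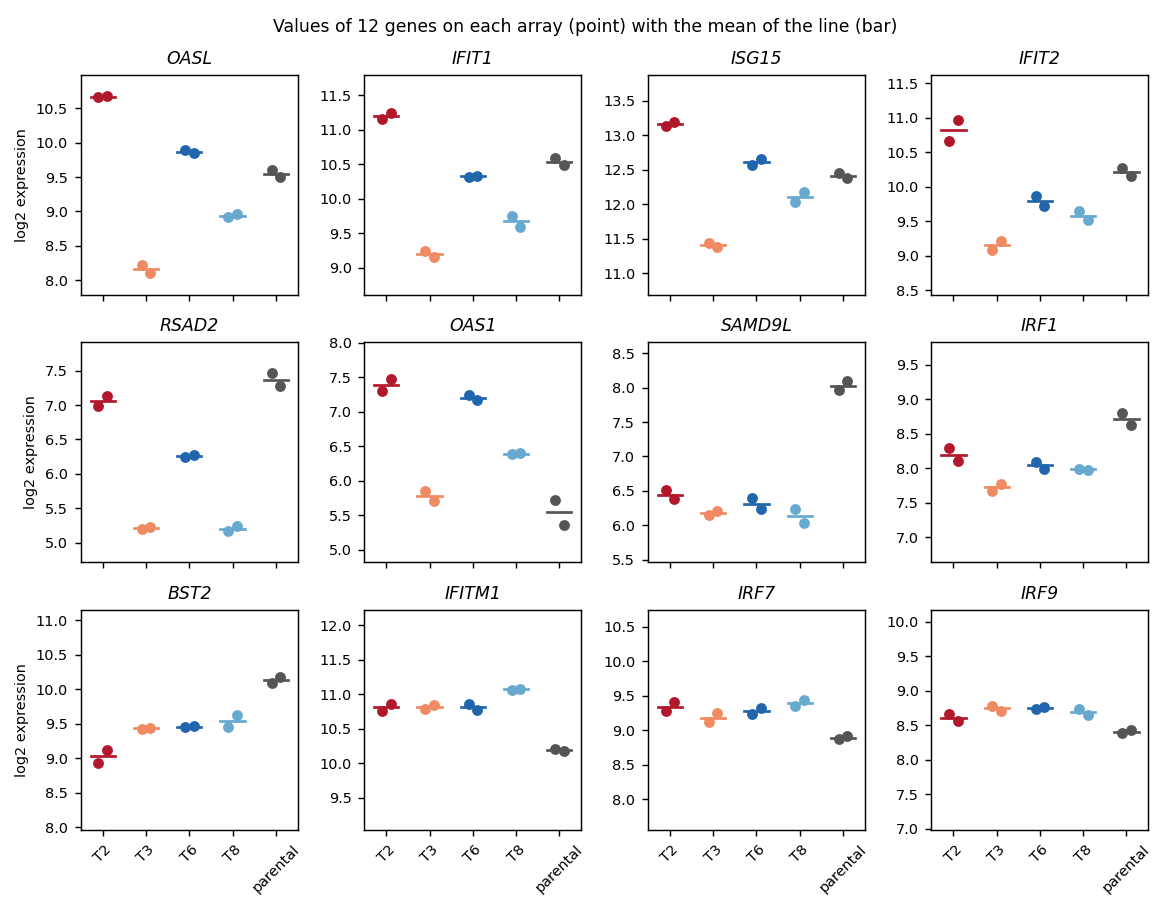
Log2 values of 12 interferon response genes on every array (points), with the mean of each line as a bar, tumours left and parental right; each panel spans 3.2 log2. The T2 points lie above the T3 points for OASL, IFIT1, ISG15, RSAD2, IFIT2 and OAS1.

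The difference between T2 and T3 followed the roles unevenly, where higher and lower in T2 mean called so. In the IFIT family 3 of 4 genes were higher in T2; IFIT3 differed by 1.39 ± 0.07 and IFIT5 by 0.05 ± 0.08 (adjusted p = 0.752). IFIT5 and IFIT1 have no protein-coding gene between them and both promoters hold ISRE core matches, and IFIT5 was not called among tumours (F-test adjusted p = 0.409). Its values on the 10 arrays lay between 9.89 and 10.16, and its other probe set gave 0.32 for T2 minus T3. Of the OAS and MX genes 5 of 6 were higher in T2, OAS3 at 0.21 ± 0.10 being the exception. In the ISG15 system USP18 (the ISG15 protease), HERC5, HERC6 and ISG15 were higher in T2 and UBE2L6 was lower, at -0.28 ± 0.08 (adjusted p = 0.0121), a call lost without T2 replicate 1 or T3 replicate 2. RIGI (1.14 ± 0.11) and IFIH1 (1.16 ± 0.14) were higher in T2, while IFI16 did not pass. Of the effectors, ISG20, a 3′ exonuclease, gave 1.57 ± 0.09. IFI35 and BST2 were the other genes lower in T2, at -0.41 ± 0.08 and -0.40 ± 0.08. None of the IFITM or GBP genes passed, and the PARP14 call (0.46 ± 0.10) was lost when probe sets were averaged.

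Of promoters with either spacing, 26 genes were tested and the median T2 minus T3 was 0.61, with 14 called higher (13.9% of all genes). The single-base form was added after the data were seen, and OAS1, RIGI, IFI35 and XAF1 join through it alone. For the 7 tested genes with neither spacing, the median was 0.19 with 2 called higher, HERC6 and IRF1. Against parental, the median was -0.34 with either spacing and -0.50 with neither. Called lower were 15 of 26 and 5 of 7 genes (16.8% of all genes). No split by the ISRE core alone was made. This is a description over few genes, and 9 genes, IFIT2 and OASL among them, had no promoter entry.

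Between the tumours labelled sensitive, T6 was called above T8 in 14 of 42 genes (4.66% of all genes) and below in 3 (10.4%). The median was 0.19, against -0.03 over all genes. RSAD2 had the largest difference at 1.05 ± 0.12 (adjusted p = 5.12e-05), then OASL at 0.93 ± 0.07 and OAS1 at 0.81 ± 0.13. IFI35, IFITM1 and IFITM2 were lower in T6, by 0.33, 0.26 and 0.20. The 17 calls became 10 without T6 replicate 1, 11 without T8 replicate 1 and 10 without T8 replicate 2. T2 minus T3 and T6 minus T8 use separate arrays. They had the same sign for 29 of 42 genes (69.0%), against 65.8% of all genes, and correlated across the 42 genes at r = 0.676 (Spearman 0.608), against 0.604 (0.503) over all 14929; genes are not independent replicates, so this is a description.

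**Figure D4:**
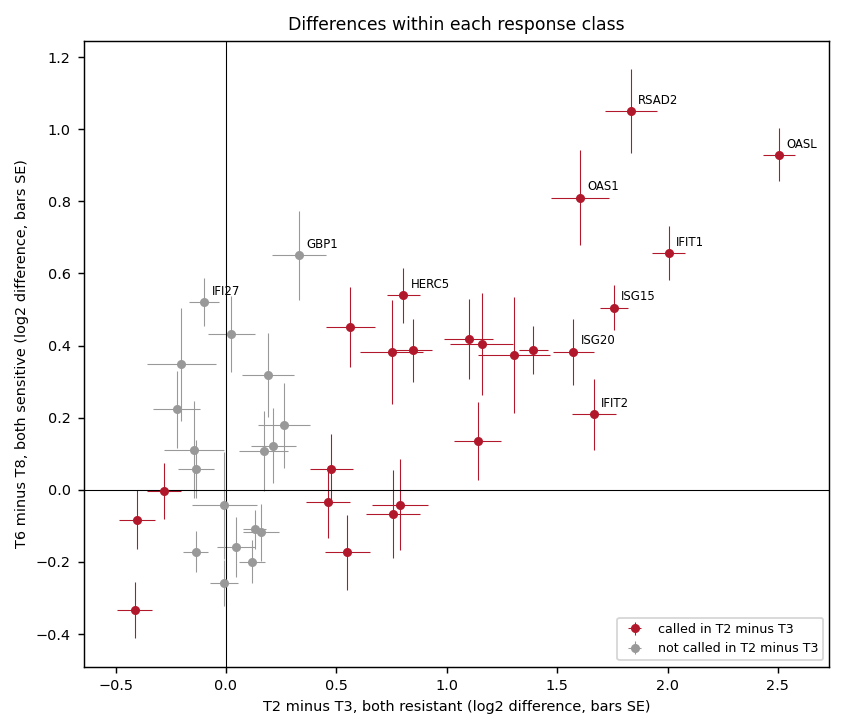
T2 minus T3 (horizontal) against T6 minus T8 (vertical), both log2 differences with SE bars, for the tested interferon response genes, red where called in T2 minus T3 and grey where not. Most points lie to the right of 0, OASL is farthest right, and IFIT5 is close to 0 on the horizontal axis.

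The response to SM-164 is a property of a tumour, so the resistant tumours were compared with the sensitive ones with each tumour as 1 replicate (n = 2 each). No gene passed, either among the 42 or over all (0 called, 0% of all genes); the smallest adjusted p in limma was 0.894, and 661 genes and 0 of the 42 had an unadjusted p under 0.05. Over arrays, which describes only these tumours, 8 genes were called higher in resistant tumours (4.76% of all genes) and 3 lower (14.2%). These 11 calls became 7 without T6 replicate 2. Every resistant array lay above every sensitive array for 0 of 42 genes (3.97% of all genes) and below for 2 (6.44% of all genes).

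The largest differences over arrays were in OAS2, RSAD2 and IFI44. OAS2 read log2 7.10 and 7.27 on the T2 arrays, 6.58 and 6.69 on the T3 arrays, 7.33 and 7.24 on the T6 arrays and 7.45 and 7.47 on the T8 arrays, against 7.31 and 7.26 on the parental arrays. T3 was lowest, T8 highest, and T2 and T6 overlapped; resistant minus sensitive was -0.46 ± 0.07 over arrays (SE 0.21 over tumours). The 2 other OAS2 probe sets did not share this pattern. They gave -0.18 and 0.09 for resistant minus sensitive, with T2 as the highest tumour (6.95 and 5.90) and T8 at 6.33 and 5.46, so both the size and the sign depended on the probe set. RSAD2 differed by 0.40 ± 0.08 over arrays (SE 0.69 over tumours), with T2 high and T3 as low as T8, and by 0.36 on its other probe set. IFI44, an induced cytoplasmic protein, read log2 9.59 and 9.79 on the T2 arrays, 8.76 and 8.92 on the T3 arrays, 9.11 and 9.05 on the T6 arrays and 8.69 and 8.69 on the T8 arrays, against 9.18 and 9.07 on the parental arrays. T2 was highest, T6 overlapped the parental arrays, and T3 and T8 lay below them, giving 0.39 ± 0.06 over arrays (SE 0.32 over tumours).

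Upstream of the response, interferons, receptors, kinases and sensors of a companion list were counted, 28 tested of 34 measured of 35. In this list, the next and the marker lists, counts of higher and lower are of called genes. Against parental, 6 of 28 were lower (21.4%, against 16.8% of all genes) and 5 higher (17.9%, against 25.5%), and the median was -0.10; this is near the background of all genes. The 3 largest falls were IFNGR2 (-0.55), a subunit of the interferon gamma receptor, DHX58 (-0.45), a RIG-I-like receptor, and IKBKE (-0.32), a kinase of interferon induction. The 3 largest rises were SOCS3 (0.59), an inhibitor of cytokine signalling, IFNGR1 (0.37) and STING1 (0.25), the adaptor of DNA sensing. IFNA1, IFNB1, IFNE, IFNK, IFNG and TLR3 did not reach the filter, and were not tested. Between T2 and T3, 10 of 28 were higher in T2 (35.7%, against 13.9% of all genes) and 4 lower (14.3%, against 16.9%), with a median of 0.15. IFNLR1 (1.12), a subunit of the interferon lambda receptor, STING1 (0.84) and SOCS3 (0.66) were the largest among those higher in T2, with PTPN2 (-1.06), a phosphatase that dephosphorylates Janus kinases, IRF2 (-0.54), which represses ISRE genes, and IFNGR1 (-0.49) lower in T2.

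Of 36 further interferon-induced genes, 34 were measured and 31 tested. Against parental, 13 of 31 were lower (41.9%, against 16.8% of all genes) and 4 higher (12.9%, against 25.5%), with a median of -0.10. The largest were PARP12 (-0.82), DDX60 (-0.76) and DDX60L (-0.74), and TRIM5 (0.46), SP110 (0.32) and EIF2AK2 (0.30), the last encoding the double-stranded RNA-activated kinase PKR. Between T2 and T3, 5 of 31 were higher in T2 (16.1%, against 13.9% of all genes) and 3 lower (9.68%, against 16.9%), with a median of 0.02, so the list as counted stood near all genes. DDX60 (1.45), LY6E (1.11) and CCL5 (0.66) were higher in T2, and NT5C3A (-0.53), DDX60L (-0.34) and LAP3 (-0.27) were lower.

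The labels were checked against markers. VIM, CD44, EGFR, CAV1 and KRT18 were high on every array, and PGR, which a triple-negative line lacks, was below log2 5; the oestrogen receptor gene ESR1 read 6.65 in tumours and 6.71 in parental cells on a less specific probe set. Arrays of a line correlated at 0.996 to 0.998 and arrays of different lines at 0.972 to 0.995. Host cells would be of the mouse, and binding of mouse transcripts to these probes was not tested. Of plasmacytoid dendritic cell markers, 3 of 4 lay below log2 5 on every array, as did 3 of 5 lymphocyte and blood markers. The 1 plasmacytoid marker tested was not called against parental. Among lymphocyte and blood markers 2 were tested, and 1 was lower in tumours (50%, against 16.8% of all genes). Of macrophage markers 5 were tested, and 3 were lower in tumours (against 16.8% of all genes). Between T2 and T3, 1 of the 5 was called higher in T2 (20%, against 13.9% of all genes), with a median of 0.11. The log2 of the summed signal of the 6 measured markers, in which bright markers weigh most, was 9.65 to 10.9 in tumours. It was 10.8 and 10.9 in parental cells, 10.4 to 10.5 in T2 and 9.65 to 9.78 in T3. LAPTM5 alone read 10.14 in T2 and 9.20 in T3. CDH1, low in this line, averaged 5.40 in T2 and 4.51 in T3. The part of these in the T2 minus T3 results was not tested. Of endothelial markers, 4 of 6 were higher in tumours (66.7%, against 25.5% of all genes). Of 6 fibroblast markers 5 were tested; COL1A2 was lower in tumours (-0.38, adjusted p = 0.0222) and ACTA2 lower in T2 than in T3 (-0.50, adjusted p = 0.00667). The log2 of the summed signal of the fibroblast markers was 9.38 to 9.77 in tumours, against 9.65 and 9.67 in parental cells. The part of these markers in the results was not tested. Differences are on the log2 scale, with the SE of the array fit unless stated.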

How the data were processed

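The authors deposited log2 expression values for 54675 probe sets on 10 arrays; affy, RMA and limma are named per the submitters' processing notes, and versions and settings are not given in the sources used here. RMA corrects background, normalises between arrays and summarises probes, and compresses differences near background. Probe sets were named from the platform annotation, with symbols brought up to date by Entrez number for 41037; 62 control probe sets, 1801 with several genes and 11721 with none were left out. The probe set with the highest mean stood for its gene, and log2 5 on at least 2 arrays was required. Precision is limited by having 2 arrays a line and by how far a signal stands above background.

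Members and companion lists were chosen with earlier results of these data known. Tests used limma 3.58.1 (lmFit, eBayes with a trend) in R 4.3.3, 1 coefficient per line over all 10 arrays, two-sided, with Benjamini-Hochberg adjustment over 14929 genes and a call at 0.05. The response was also fitted on line means. The fit was tested on simulated data. Named genes were the measured transcription factors, the 8 largest falls and 5 largest rises against parental, the 6 widest ranges among tumours, and the 3 largest resistant minus sensitive differences; others are given with their values. Replicate numbers were checked for pairing: same-numbered arrays' deviations correlated at -0.387 to 0.502 over 10 pairs of lines, so the numbers were not used as a block. Promoter letters came from RefSeq on GRCh38.p14. Alternatives covered scaling, filter, probe set choice, trend, block and single arrays left out.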

Additional observations from a re-analysis of the deposited data

Results flagged for a closer look

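For 9 genes, 2 tumours moved in opposite directions relative to parental cells, both effects were called, and the direct difference between the tumours was called as well in limma. The same count was not made over all genes, so whether 9 is unusual cannot be judged. The T2 minus T3 difference alone was called higher for 13.9% and lower for 16.9% of all genes. Between T2 and T3, T2 was above and T3 below parental. The difference was 2.51 for OASL (1.12 in T2 and -1.39 in T3), 2.00 for IFIT1 (0.66 and -1.34), 1.76 for ISG15 (0.75 and -1.01), 1.67 for IFIT2 (0.60 and -1.06) and 1.57 for ISG20 (0.82 and -0.75). It was 1.39 for IFIT3 (0.53 and -0.86), 1.14 for RIGI (0.43 and -0.71), 0.85 for IFI44 (0.56 and -0.28) and 0.80 for HERC5 (0.38 and -0.42).

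Between T2 and T6, IFIT1 differed by 0.87 (0.66 in T2 and -0.21 in T6) and IFIT2 by 1.03 (0.60 and -0.42). Between T6 and T8, OASL differed by 0.93 (0.32 in T6 and -0.61 in T8) and ISG15 by 0.51 (0.20 and -0.31). These are log2 differences. The comparisons with parental share the parental arrays.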

How the results depend on the processing

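Across the alternative runs, 197 counts of called genes in the main comparisons equalled the main count or stayed within a set ratio of it, and 6 moved. These labels compare the size of a count and cannot show a reversal. The 197 include the counts with tumours as replicates, which were 0 throughout and say little about stability. Of the named genes' values 492 stayed and 5 passed the threshold in addition. Among single genes, PARP9 changed sign against parental without less specific probe sets. Some runs lost the calls of IFIT3, MX1, MX2, LGALS3BP and PARP9 against parental, and of PARP14 and UBE2L6 between T2 and T3. Genes called higher in tumours numbered 2 in place of 5 without less specific probe sets. IFITM1, IFITM2 and IRF7 have only such probe sets and were not tested in that run. Genes called between T6 and T8 ranged over 10 to 19 when single arrays were left out, and genes called between resistant and sensitive over arrays over 7 to 13, with 7 under centred medians in place of 11; the cause was not tested. With tumours as replicates, 0 genes were called in every alternative run. With the replicate block, 23 genes were lower and 5 higher in tumours. In that run 25 were called in T2 minus T3, 18 in T6 minus T8 and 9 between resistant and sensitive over arrays. In the pairing check, 6 of 10 arrays correlated best with their own number, and the check did not pair the samples. It used the difference between the 2 arrays of each line, so both arrays of a line always gave the same answer. Another scaling moved the median of all genes by less than 0.1: under repeated quantile normalization 29 genes were lower and 5 higher in tumours, under centred medians 20 and 5. Each line has 2 arrays, and values close to log2 5 (OAS1 in parental cells, RSAD2 in T3 and T8) have compressed differences. PARP9, IFITM1, IFITM2 and IFITM3 rest on uncertain probe sets, and among the other called risers IRF7 has only a less specific one. Further genes rest on less specific probe sets too, among them ISG15 and IFI35, which have no other. The chosen probe sets of RIGI and IFI44 are also of that kind. For RIGI, another probe set not of that kind gave 1.35 for T2 minus T3.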

Other observations

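Neighbouring members did not always move together. SAMD9 and SAMD9L both fell in the tumours, but between T2 and T3 SAMD9 differed by 0.79 and SAMD9L by 0.26, which did not pass. HERC5 and HERC6 were both higher in T2 than in T3, by 0.80 and 1.10, and MX1 and MX2 by 1.30 and 0.56. Where a called member had other probe sets that reached the filter, 12 of 12 had the same sign between T2 and T3, and 11 of 12 for tumours against parental cells, the exception being PARP9.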
